A study of Mus musculus with 22 samples.

Results

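The 6 ribosomal protein paralogs Rpl39l, Rpl3l, Rpl10l, Rpl22l1, Rpl7l1 and Rps27l were followed in RNA from mouse embryonic fibroblasts with and without Lsh. They were found by gene symbol among 21032 genes and are a part of the "-like" relatives of ribosomal proteins. Rpl36al, for example, is not among them. They were chosen by symbol with their RPKM in the KO and WT libraries known, above all that of Rpl39l, so every KO against WT value of the 6 genes is given here as a description, with no test. The cells were primary C57BL/6 fibroblasts grown from the body of E13.5 embryos and used at passage 3 to 4. The 2 KO libraries, KO1 and KO2, come from Lsh-/- embryos, and the 2 WT libraries, WT1 and WT2, from Lsh+/+ embryos. Lsh is the SNF2-family chromatin remodeller encoded by Hells, required for normal DNA methylation. The labels call the libraries biological replicates without saying whether embryos were pooled. The p-values below measure only the spread between these 4 libraries, which limma shares in part across genes.

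A ribosome is built from ribosomal RNA and a fixed set of ribosomal proteins, most of which come from 1 gene that every cell uses. A few of these genes have a second, related copy. Some copies are used in few tissues: mouse Rpl39l and Rpl10l are known from the testis, where they serve male germ cells while the X-linked parents Rpl39 and Rpl10 are silenced in meiosis, and Rpl3l is known from heart and skeletal muscle. Others are used widely: Rpl22l1 can stand in for Rpl22, Rps27l is a close relative of Rps27 that p53 induces, and Rpl7l1 is a relative of Rpl7 found on maturing large subunits in human cells.

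The stretches of 250 bases before the annotated start of 4 of the genes are shown for their content of CpG, the dinucleotide that DNA methylation acts on in mammals: those of the 3 tissue-restricted copies and, beside them, that of the widely used Rpl22l1. They are RefSeq sequences of build GRCm38.p6, 5′ to 3′ on the gene's strand, with each CpG in capitals. The windows are chr16:10169978-10170227 (plus strand) for Rpl39l, chr12:66284402-66284651 (minus strand) for Rpl10l, chr17:24727576-24727825 (plus strand, the upstream one of 2 annotated starts) for Rpl3l and chr3:28805258-28805507 (plus strand) for Rpl22l1.
Rpl39l: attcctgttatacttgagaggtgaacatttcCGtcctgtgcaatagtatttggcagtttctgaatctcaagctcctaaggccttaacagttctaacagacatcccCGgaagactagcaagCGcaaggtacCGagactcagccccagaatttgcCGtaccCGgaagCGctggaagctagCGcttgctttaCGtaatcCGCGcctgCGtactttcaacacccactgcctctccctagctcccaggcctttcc
Rpl10l: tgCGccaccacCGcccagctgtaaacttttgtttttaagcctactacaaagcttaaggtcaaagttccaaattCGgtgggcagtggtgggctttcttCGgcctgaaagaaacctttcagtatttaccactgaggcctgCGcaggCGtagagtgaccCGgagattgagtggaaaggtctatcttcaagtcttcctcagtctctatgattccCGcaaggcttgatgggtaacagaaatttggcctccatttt
Rpl3l: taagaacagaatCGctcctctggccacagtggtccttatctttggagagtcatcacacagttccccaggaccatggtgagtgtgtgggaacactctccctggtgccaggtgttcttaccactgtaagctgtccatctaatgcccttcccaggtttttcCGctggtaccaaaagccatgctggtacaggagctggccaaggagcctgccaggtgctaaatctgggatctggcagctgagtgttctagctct
Rpl22l1: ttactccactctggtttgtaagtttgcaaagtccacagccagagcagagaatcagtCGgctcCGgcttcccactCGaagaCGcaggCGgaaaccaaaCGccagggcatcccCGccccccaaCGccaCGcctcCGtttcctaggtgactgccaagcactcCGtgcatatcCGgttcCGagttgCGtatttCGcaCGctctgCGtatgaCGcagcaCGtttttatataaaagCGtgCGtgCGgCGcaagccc

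The Rpl39l window holds 12 CpG, that of Rpl10l 8 and that of Rpl3l 2. Rpl22l1 has 23. Of the 32851 windows in the RefSeq promoter table, 33.5% hold at least as many CpG as Rpl39l, 43.0% at least as many as Rpl10l, 81.2% at least as many as Rpl3l and 13.3% at least as many as Rpl22l1, and the median window holds 6. The window of Rpl39, the X-linked parent, also holds 12. All 6 paralogs matched the table by symbol. Rpl7l1 has 13 CpG, and the 2 windows of Rps27l have 18 and 23. The 3 widely used copies thus reach from 13 to 23 and the 3 restricted ones from 2 to 12. The widely used parent genes do not keep to this split. Rpl22 has 11 and 8 in its 2 windows, while Rpl10 has 13 and Rps27 18. The letters CCGGAA, the core that ETS-family factors bind, were searched on both strands. Each match contains a CpG. They occur 2 times in the Rpl39l window and 1 time in that of Rpl7l1. No other window of the 6 copies holds them (0 each for Rpl10l, Rpl3l, Rpl22l1 and both windows of Rps27l). Of all windows 12.0% hold at least 1 match and 2.49% at least 2. A match is a description of these letters only.

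Levels are in RPKM, which scales reads to transcript length and to the mapped reads of the library, so that different genes can be set side by side. The libraries held 122.5 and 136.1 M mapped reads in KO1 and KO2 and 132.2 and 176.6 M in WT1 and WT2 (M for mega). Hells, the targeted gene, was at 0.430 and 0.550 RPKM in KO1 and KO2, against 0.865 and 1.06 RPKM in WT1 and WT2. Both KO libraries lay below both WT libraries, but Hells did not pass in limma (log2 -0.56, adjusted p 1.00 by genotype alone and 0.1997 with replicate number added). All 18 fibroblast markers passed the filter on low values, among them Col1a1 with 291.1 and 464.5 RPKM in KO1 and KO2 and 318.3 and 516.6 RPKM in WT1 and WT2. Of these markers 16 differed between the replicate numbers in limma, as did 5323 of the 11147 genes tested (47.8%). Lum, a matrix proteoglycan, was at 1.27 and 104.6 RPKM in KO1 and KO2, against 0.718 and 108.2 RPKM in WT1 and WT2. KO minus WT is therefore given within each replicate number, as KO1 minus WT1 and KO2 minus WT2.

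Rpl39l (mm9, chromosome 16, 10170321 to 10175004, plus strand) was at 17.2 and 12.6 RPKM in KO1 and KO2, against 2.20 and 2.40 RPKM in WT1 and WT2. Both KO libraries lay above both WT libraries, and the 2 libraries of a genotype were closer to each other than to those of the other genotype. The KO1 level was 7.80 times the WT1 level and the KO2 level 5.26 times the WT2 level. In reads this is 2102 and 1717 reads per kilobase of transcript in KO1 and KO2 and 290.7 and 423.6 in WT1 and WT2, so that counting noise is small beside the difference. On log2(RPKM + 0.5), the scale of all differences below, KO minus WT was 2.71 for replicate 1 and 2.18 for replicate 2. The mean, 2.44, ranked 1 from the top among the 11147 genes, a rank that follows from how the gene was chosen. Both KO above both WT libraries held for 6.1% of all genes tested and both KO below both WT for 7.32%.

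Rpl10l (mm9, chromosome 12, 67384366 to 67385388, minus strand), the testis copy of Rpl10, was at the floor of detection. It was at 0.00798 and 0 RPKM in KO1 and KO2 and at 0 and 0.0166 RPKM in WT1 and WT2. The gene is 1 exon of 1023 bases, so these values can be read as 1 and 0 reads in the KO libraries and 0 and 3 reads in the WT libraries. A count of 0 allows up to 3 reads, or 0.0215 RPKM in KO2 and 0.0222 RPKM in WT1, for counting error only. No difference was detectable at this depth.

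Rpl3l (mm9, chromosome 17, 24864774 to 24873094, plus strand), the muscle copy of Rpl3, has 2 transcript rows, and both were listed at 0 in KO1 and in WT1. Its level in KO2 and WT2 is not analysed here. A listed 0 is not a measure of silence in these files: Rpl3, which every cell uses, was itself at 0.0360 and 0.0270 RPKM in KO1 and KO2 and at 0.0667 and 0.0250 RPKM in WT1 and WT2. Gapdh, a glycolytic enzyme abundant in all cells, was at 0.298 and 0.179 RPKM in the KO libraries and at 0.160 and 0 RPKM in the WT libraries. Of the tissue-restricted copies, Rpl39l was thus the 1 that passed the filter of 0.5 RPKM in at least 2 libraries, whereas the 3 widely used copies all passed it.

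Most markers of the tissues in which the restricted copies are known were near 0. Of 35 testis and germ cell genes with a row, 30 were below 0.1 RPKM in every library that lists them and 19 were at 0. Among the 19 were Prm1 and Prm2, which pack DNA in sperm, and Stra8, which starts meiosis. These 19 have values in KO1 and WT1 only, and a listed 0 is not a measure of silence. The summed level of all 35 genes was 11.7 and 10.5 RPKM in KO1 and KO2, against 10.9 and 12.0 RPKM in WT1 and WT2. Most of that sum came from Crem, Odf2 and Hspa1l, the 3 list members that passed the filter. Of 43 striated muscle genes 25 were below 0.1 RPKM in every library that lists them, and the sum was 102.9 and 78.1 RPKM in KO1 and KO2 and 174.7 and 69.7 RPKM in WT1 and WT2. Acta1, the skeletal muscle actin, made up the largest part of it in WT1, with 129.4 RPKM. Of the 4 tested muscle genes 1 rose in limma with replicate number added, against 0.377% of all genes, and 0 by genotype alone. This was Tnnt2, at 0.850 and 1.15 RPKM in KO1 and KO2, against 0.302 and 0.372 RPKM in WT1 and WT2 (limma adjusted p 0.0487). Tnnt2 passed the filter through the KO libraries alone. It was thus tested only because its KO values are high, and the count of 1 in 4 cannot show a rise of muscle genes. Des, also tested, had a mean KO minus WT of -1.40. It was at 2.38 and 38.0 RPKM in KO1 and KO2, against 23.7 and 31.5 RPKM in WT1 and WT2. The median difference of the 4 tested genes was -0.56 for replicate 1 and 0.16 for replicate 2. Macrophage genes ran the other way from Rpl39l: 10 of 11 tested members were lower in KO within both numbers, against 31.4% of all genes tested. The 14 members summed to 8.40 and 86.5 RPKM in KO1 and KO2, against 60.8 and 176.9 RPKM in WT1 and WT2. In limma 4 of the 11 fell with replicate number added to the model, against 0.296% of all genes, and 0 by genotype alone. Of the 18 fibroblast markers 10 had the higher value in KO for both replicate numbers and 4 the lower one. Over all genes the shares were 22.5% and 31.4%. The medians of the markers were 0.30 for replicate 1 and 0.09 for replicate 2. In either fit 0 of them passed, against 0% by genotype alone and 0.673% with replicate number added over all genes. Of the 14 macrophage genes, 0 were at 0 in every library. Whether the marker levels bear on Rpl39l was not tested, and in bulk RNA fewer cells of a type and less RNA per cell cannot be told apart.

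The widely used copies were expressed in all libraries and did not separate the genotypes. Rpl22l1 (mm9, chromosome 3, 28704433 to 28706337, plus strand) was at 31.1 and 45.6 RPKM in KO1 and KO2, against 32.0 and 19.9 RPKM in WT1 and WT2. WT2 was the low library and KO2 the high one, and KO1 lay just below WT1, so the genotypes overlapped. KO minus WT was -0.04 for replicate 1 and 1.17 for replicate 2. The mean of 0.57 became 0.23 without WT2 and 0.90 without WT1. Of all genes tested, 4.58% had a larger absolute mean difference than Rpl22l1.

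Rpl7l1 (mm9, chromosome 17, 46910856 to 46919605, minus strand) was at 24.4 and 22.1 RPKM in KO1 and KO2 and at 30.0 and 23.5 RPKM in WT1 and WT2. KO was lower within both numbers, by 0.29 for replicate 1 and 0.09 for replicate 2 on the log2 scale, but KO1 lay above WT2. A lower KO value within both numbers was seen in 31.4% of all genes tested and a higher one in 22.5%. RefSeq names 1 pseudogene after Rpl7l1 and 0 after each of the other 5 copies.

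Rps27l (mm9, chromosome 9, 66793925 to 66797316, plus strand) was at 13.1 and 16.0 RPKM in KO1 and KO2, against 16.8 and 10.8 RPKM in WT1 and WT2. The differences pointed opposite ways, -0.35 for replicate 1 and 0.55 for replicate 2, and 62.1% of genes tested had a larger absolute mean difference than the 0.10 of Rps27l. Without WT2 the mean was -0.21, and without WT1 it was 0.41.

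**Figure D1:**
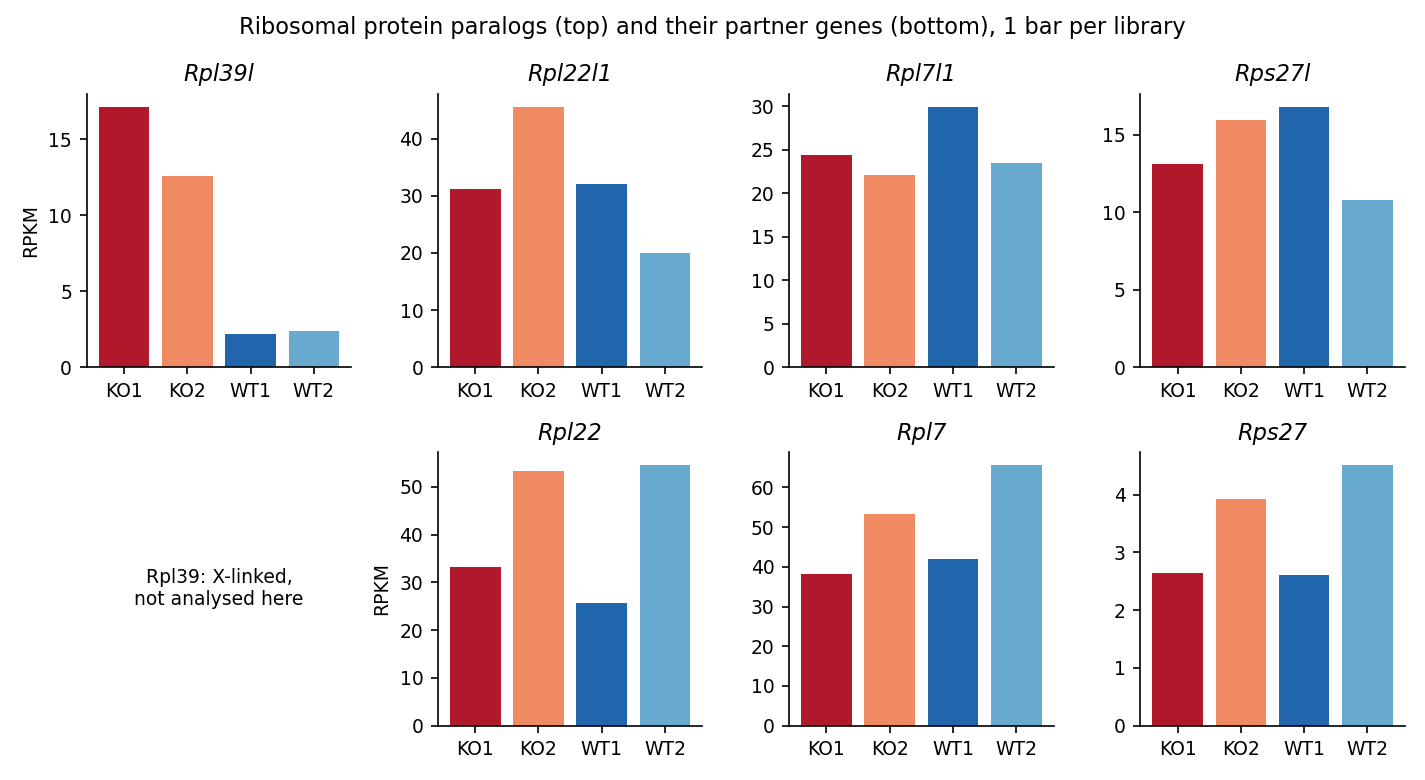
RPKM (vertical axis, from 0, a scale of its own for each gene) of the 4 expressed paralogs in the top row and of their autosomal partner genes in the bottom row, with 1 bar for each of the libraries KO1, KO2, WT1 and WT2. Rpl39l stands at 17.2 and 12.6 RPKM in KO and at 2.20 and 2.40 in WT, whereas the bars of the other paralogs overlap between genotypes.

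The distance of Rpl39l from the other copies differed between the genotypes, whereas the order of the copies did not separate them: it was the same in KO2 and WT1. In the KO libraries Rpl22l1 and Rpl7l1 came first, and Rpl39l and Rps27l followed at like levels: Rps27l was at 0.763 times Rpl39l in KO1 and 1.27 times in KO2. In the WT libraries Rps27l was at 7.65 times Rpl39l in WT1 and 4.50 times in WT2. Rpl22l1 and Rpl7l1, the upper neighbours in WT, overlapped, whereas Rpl7l1 lay above Rps27l and Rps27l above Rpl39l in both WT libraries with no overlap. In KO, Rpl22l1 lay above Rpl7l1 and Rpl7l1 above both lower copies with no overlap. Rpl39l made up 20.0% and 13.1% of the summed RPKM of the 4 copies in KO1 and KO2, against 2.71% and 4.24% in WT1 and WT2. These orders and shares describe deposited values of different genes, which need not follow the amounts of their RNA.

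The difference between the replicate numbers, replicate 2 minus replicate 1, played no part in the choice of the genes and was tested with limma in a model of genotype and number. Of the 4 expressed copies 0 passed, against 47.8% of all genes tested (54.3% at an unadjusted p below 0.05). Among core ribosomal protein genes, 4 of 32 tested for the large subunit (12.5%) and 4 of 23 for the small subunit (17.4%) passed. A low share is thus not particular to the copies. Rpl39l differed by -0.16 (SE 0.19, limma adjusted p 0.497), Rpl22l1 by -0.06 (SE 0.30, adjusted p 0.880), Rpl7l1 by -0.24 (SE 0.17, adjusted p 0.255) and Rps27l by -0.17 (SE 0.22, adjusted p 0.561). All 4 values lay below 0, while the median of all genes was 0.25. With median-ratio scaling, which moves that median to -0.04, Rpl7l1 passed, at -0.57 with an adjusted p of 0.00953 in limma. In the alternatives with all 4 libraries its limma adjusted p ran from 0.00953 to 0.284. The other copies also depended on the scaling. With median-ratio scaling Rpl39l was at -0.47 (limma adjusted p 0.0560), Rps27l at -0.49 (0.0741) and Rpl22l1 at -0.39 (0.327). The replicate numbers also differ in how the files were made, so culture and processing cannot be told apart.

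The partner genes are those whose product each copy resembles. Rpl22, Rpl7 and Rps27 all passed and were higher in the replicate 2 libraries, by 0.88 (SE 0.17), 0.55 (SE 0.16) and 0.59 (SE 0.18), with limma adjusted p of 0.00208, 0.0174 and 0.0179. Genes higher in the replicate 2 libraries made up 35.8% of all genes tested and genes lower there 11.9%. Of the core ribosomal protein genes, which include these partners, 3 of 32 for the large and 3 of 23 for the small subunit were called higher. The calls of Rpl7 and Rps27 ended with median-ratio scaling (limma adjusted p 0.287 and 0.179), and that of Rps27 also with quantile normalization (0.271) and with no filter (0.0513). Of the 10 alternatives, the call of Rpl22 was lost in 1, without WT2 (adjusted p 0.0588). The difference between the copies and their partners was not itself tested.

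**Figure D2:**
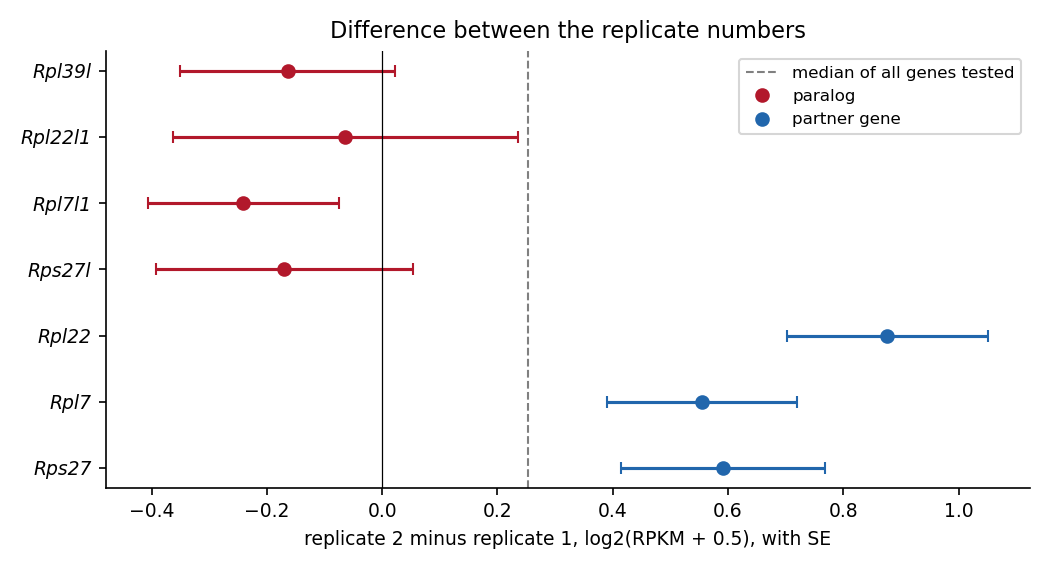
Replicate 2 minus replicate 1 on log2(RPKM + 0.5) with its SE (horizontal axis) for the 4 expressed paralogs and 3 partner genes. The dashed line marks the median of all genes tested, 0.25: the paralogs lie between -0.24 and -0.06 and the partners between 0.55 and 0.88.

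Rpl22 (mm9, chromosome 4, 151699987 to 151708180), which binds RNA and in mice is known to hold Rpl22l1 down, was at 33.2 and 53.4 RPKM in KO1 and KO2, against 25.7 and 54.6 RPKM in WT1 and WT2. The ratio of Rpl22l1 to Rpl22 was 0.938 and 0.853 in KO1 and KO2, and 1.25 and 0.365 in WT1 and WT2. The 2 WT libraries thus lay on either side of the KO libraries. Rpl7 (chromosome 1, 16091376 to 16094514) was at 38.2 and 53.2 RPKM in KO1 and KO2 against 42.0 and 65.6 RPKM in WT1 and WT2. Rpl7l1 stood to it as 0.638 and 0.416 in KO1 and KO2 and as 0.713 and 0.358 in WT1 and WT2. Here the ratio followed the replicate number: it was higher in both replicate 1 libraries.

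Rps27l exceeded Rps27 in every library, with ratios of 4.96 and 4.08 in KO1 and KO2 and of 6.46 and 2.39 in WT1 and WT2. These ratios rest on a low reading of Rps27 (chromosome 3, 90016589 to 90017570), 2.64 and 3.92 RPKM in KO1 and KO2 and 2.61 and 4.51 RPKM in WT1 and WT2, all of it from a non-coding RefSeq transcript. The protein-coding transcript of Rps27 was listed at 0 in KO1 and WT1. RefSeq names 2 pseudogenes after Rps27, 3 after Rpl7 and 1 after Rpl22. How reads that match several places were treated is not given in the sources used here, so the ratios describe the deposited values and not the make-up of ribosomes. The parents Rpl39 and Rpl10 lie on X and are not analysed here. RefSeq names 6 pseudogenes after Rpl10 and 1 after Rpl39, and reads that Rpl39l shares with Rpl39 or its pseudogene leave its level uncertain. In the KO against WT comparison Rpl22, Rpl7 and Rps27 did not pass (0 of 3 in either limma fit, against 0% and 0.673% of all genes).

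The core ribosomal proteins were set beside the copies as deposited values. Of 81 core genes 67 were listed in all 4 libraries, with mean levels from 0.0387 to 1917 RPKM, and 13 of them were below 1 RPKM in every library. KO against WT was fitted with limma by genotype alone and, as a number-adjusted fit, by genotype and replicate number. Of the 55 tested core genes 0 passed in either fit, with 0 and 2 at an unadjusted p below 0.05. Over all genes the genotype fit called 0 (0%), with 41 (0.368%) at an unadjusted p below 0.05. The number-adjusted fit called 75 (0.673%), 42 higher (0.377%) and 33 lower (0.296%) in KO, with 1014 (9.1%) at an unadjusted p below 0.05. The expressed copies were among the genes fitted, but they were chosen with these values known, so their results in the 2 fits are not given.

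Within the replicate numbers, 8 of the 55 core genes were higher in KO in both and 10 lower in both, against 22.5% higher and 31.4% lower over all genes. The median difference was -0.09 for replicate 1 and 0.10 for replicate 2, against -0.07 and 0.02 over all genes. The core genes spread more widely for replicate 2, from -1.75 to 1.17, than for replicate 1, from -0.66 to 0.63. Rpl19 was at 15.0 and 11.9 RPKM in KO1 and KO2, against 11.6 and 40.5 RPKM in WT1 and WT2, and Rpl6 at 5.92 and 3.98 RPKM in KO1 and KO2, against 4.62 and 11.8 RPKM in WT1 and WT2. In both, WT2 was the library that stood apart, on the high side. For Rpl22l1 WT2 was the low library and KO2 the high one. Among the genes higher in KO, Rpl23a was at 12.2 and 9.04 RPKM in KO1 and KO2 against 7.72 and 6.06 RPKM in WT1 and WT2. It missed the threshold (log2 0.58, limma adjusted p 0.195 in the number-adjusted fit). Rps19 was at 81.9 and 91.7 RPKM in KO1 and KO2, against 79.9 and 55.4 RPKM in WT1 and WT2 (log2 0.38, limma adjusted p 0.639 in the same fit).

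**Figure D3:**
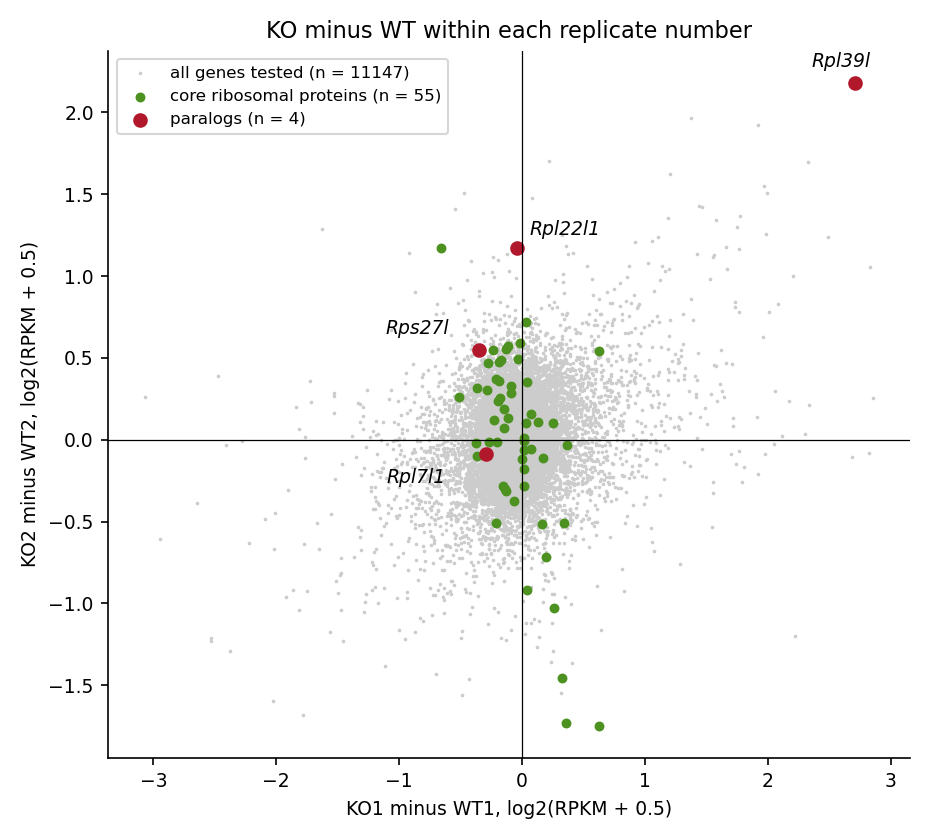
KO minus WT on log2(RPKM + 0.5) for replicate 1 (horizontal axis) and replicate 2 (vertical axis), with 1 point per gene: all 11147 genes tested in grey, 55 core ribosomal proteins in green and the 4 expressed paralogs in red. Rpl39l lies at 2.71 and 2.18, far from the other paralogs, and Rpl22l1 at -0.04 and 1.17.

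The genes that build ribosomes and the targets of p53 were counted because Rpl7l1 and Rps27l are tied to them. Of 67 tested ribosome biogenesis genes 0 passed for KO against WT in either limma fit, against 0% and 0.673% of all genes. At an unadjusted p below 0.05 there were 0 in either, against 0.368% and 9.1% of all genes. Within the numbers 1 was higher and 21 were lower in both, and over all genes 22.5% were higher and 31.4% lower. The median difference was -0.19 for replicate 1 and 0.08 for replicate 2. Emg1, which modifies small subunit RNA, had the highest mean difference of the list and was at 7.84 and 8.13 RPKM in KO1 and KO2, against 9.01 and 5.26 RPKM in WT1 and WT2. Fbl, the methyltransferase of box C/D particles, was at 1.06 and 1.19 RPKM in KO1 and KO2, against 1.42 and 0.557 RPKM in WT1 and WT2. In both, the KO libraries lay between the WT libraries. Ubtf, a factor of ribosomal RNA transcription, was at 7.54 and 12.6 RPKM in KO1 and KO2, against 11.8 and 13.3 RPKM in WT1 and WT2. Nob1, which processes small subunit RNA, was at 11.1 and 7.88 RPKM in KO1 and KO2, against 12.9 and 10.2 RPKM in WT1 and WT2. Between the replicate numbers 17 of the 67 (25.4%) differed, 2 higher and 15 lower in the replicate 2 libraries, against 47.8% of all genes, 35.8% higher and 11.9% lower.

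Of 26 tested p53 targets 0 passed for KO against WT in either limma fit, with 1 and 3 at an unadjusted p below 0.05 in the genotype and number-adjusted fits. Over all genes these fits called 0% and 0.673%, with 0.368% and 9.1% at an unadjusted p below 0.05. Of the list, Gdf15, a stress-induced secreted factor, came nearest to passing. It was at 1.16 and 2.31 RPKM in KO1 and KO2, against 4.12 and 4.14 RPKM in WT1 and WT2 (log2 -1.10, limma adjusted p 0.0538 in the number-adjusted fit). Trp53inp1, which promotes cell death and autophagy, was at 12.0 and 31.0 RPKM in KO1 and KO2, against 12.4 and 19.0 RPKM in WT1 and WT2. Over the list, the middle value of KO minus WT was -0.16 in replicate 1 and 0.14 in replicate 2. The medians of all genes, -0.07 and 0.02, and the values of Rps27l, -0.35 and 0.55, had those signs too. Between the replicate numbers 14 of the 26 (53.8%) differed, 6 higher and 8 lower, a share near the 47.8% of all genes.

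The genes around Rpl39l were compared in the same way. Of the 9 other genes with a row within 500 kb, 5 passed the filter. In either limma fit 0 of the 5 passed for KO against WT, against 0% and 0.673% of all genes. In the number-adjusted fit 0 had an unadjusted p below 0.05, against 9.1% of all genes, and their lowest limma adjusted p was 0.595. The KO over WT ratios of the 5 within a number ran from 0.723 to 1.19. Emp2, a membrane protein gene whose start lies 143.7 kb away, was at 31.4 and 33.5 RPKM in KO1 and KO2, against 29.2 and 28.2 RPKM in WT1 and WT2. Nubp1, an iron-sulphur cluster assembly factor, was at 5.11 and 5.90 RPKM in KO1 and KO2, against 6.00 and 5.81 RPKM in WT1 and WT2. Atf7ip2, the nearest gene downstream at 22.7 kb, was at 0.0506 and 0.233 RPKM in KO1 and KO2 and at 0.0732 and 0.202 RPKM in WT1 and WT2, below the filter. Tekt5, a gene of the sperm tail, was listed at 0 in KO1 and WT1. Grin2a and Ciita were also below the filter, and the highest value among these 4 genes was 0.233 RPKM.

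**Figure D4:**
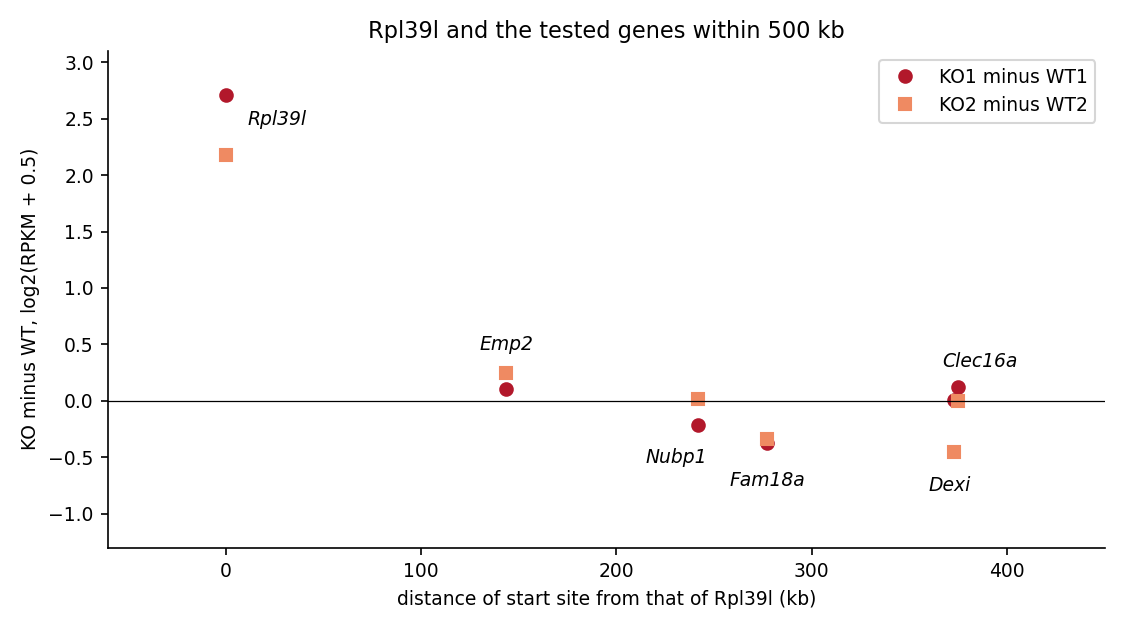
KO minus WT on log2(RPKM + 0.5) (vertical axis) within replicate 1 (circles) and replicate 2 (squares), against the distance in kb of each gene's start from that of Rpl39l (horizontal axis), for Rpl39l and the 5 tested genes within 500 kb. Rpl39l is at 2.71 and 2.18 and the others lie between -0.45 and 0.25.

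The genes whose pattern over the 4 libraries was most like that of Rpl39l were found by Euclidean distance between values of log2(RPKM + 0.5) centred on each gene's mean. The 6 nearest were Mrgprx2 (distance 0.119), Defb41 (0.609), Ctla2a (0.687), Klra5 (0.853), Tnfrsf26 (0.902) and Cyp2c55 (0.927), against a median distance of 2.58 over all genes tested. Of the 6, all but Ctla2a were below 0.5 RPKM in both WT libraries and passed the filter only through the KO libraries, where they are high. None is a ribosomal protein gene. Ctla2a, a cysteine protease inhibitor, was at 20.6 and 16.4 RPKM in KO1 and KO2, against 4.90 and 5.26 RPKM in WT1 and WT2, and was the 1 gene of the 6 above 2 RPKM in every library. Mrgprx2, a Mas-related receptor, was at 2.76 and 1.77 RPKM in the KO libraries and at 0.0116 and 0 RPKM in the WT libraries. The added 0.5 shrinks ratios at such low levels, so a small distance does not mean a like ratio. The KO1 level was 237.7 times the WT1 level for Mrgprx2 and 55.2 times for Cyp2c55, against 7.80 times for Rpl39l. Tnfrsf26, a receptor of the TNF receptor family, was at 4.47 and 1.41 RPKM in KO1 and KO2, against 0.384 and 0.308 RPKM in WT1 and WT2. With the replicate number removed from the values 4 of the 6 stayed among the nearest, and Asb5 and Pcdhb22 took the place of Klra5 and Cyp2c55. The measure compares 4 values per gene and was read from the same libraries that led to Rpl39l.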

How the data were processed

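RNA libraries KO1, KO2, WT1 and WT2 were used, and the other 18 of the 22 labelled samples (input, RNA polymerase II and histone marks) are not analysed here. Per the labels' protocols, ribosomal RNA was depleted, then poly-A RNA was selected. The authors deposited RPKM values per RefSeq transcript. The submitters' processing notes name mm9 and Partek, while the deposited column description credits Cufflinks for the RPKM values. The aligner is not given in the sources used here. Rows cover chromosomes 1 to 19: 26886 in the replicate 1 and 21136 in the replicate 2 libraries, whose rows are never at 0 in both genotypes. Of the rows, 95.3% matched RefSeq by accession.

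Rows were summed per symbol, giving 16266 genes in all libraries, of which 11147 reached 0.5 RPKM in 2 or more libraries. These entered limma 3.58.1 (trend, robust; R 4.3.3) as log2(RPKM + 0.5), two-sided, with Benjamini-Hochberg adjustment over all genes and a threshold of 0.05. KO against WT was fitted with genotype alone and, as an alternative called number-adjusted, with genotype and replicate number. In the number-adjusted fit a gene's own spread has 1 degree of freedom, and limma adds a prior from all genes (median 9.7 degrees of freedom). Mapped reads come from the smallest step of RPKM times length at olfactory receptor loci (at least 88.2% whole within 0.02 of a read). The fits were also run on data simulated from the number-adjusted model itself, which cannot show how reliable the calls in the real libraries are. The 6 genes, the lists and the rules for naming genes (members, partners, the 2 most raised and 2 most lowered tested genes per list, of which a part is printed, neighbours within 500 kb and the 6 nearest patterns) were chosen with earlier results of these data known. Gapdh and the marker genes named in the text were picked after their values were seen. Rpl3l and Rpl10l entered no test.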

Additional observations from a re-analysis of the deposited data

How the results depend on the processing

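Deviations from the genotype means had a correlation of 0.875 between same-numbered libraries, but there are only 2 pairs and the labels do not say that numbers pair samples. Without the replicate block 0 genes passed for KO against WT, and with each library left out the count was 0 to 0. The replicate block (the number-adjusted fit) gave 75. The counts of 0 for the core, biogenesis, p53 and partner lists held with the replicate block. In every other alternative no gene at all passed, so the list counts there could only be 0. The lists were not counted in the further settings of the block that follow. In settings added after the data were seen, the block gave 40 genes with a pseudocount of 0.1, 59 with a pseudocount of 1, 0 with no filter on low values, 3 with the highest transcript row per gene, 148 with median-ratio scaling and 185 with quantile normalization. For Rpl39l, KO minus WT lay between 2.23 and 2.66 under all 9 alternatives. Between the replicate numbers 5323 genes passed, and 2101 to 4508 with 1 library left out (2713 without KO2, 2101 without WT2). The count of paralogs was 0, became 1 with median-ratio scaling and stayed 0 (0 to 0) with any library left out. In fits without 1 library genotype is no longer a term, so KO minus WT differences enter them by construction: the replicate 2 minus replicate 1 value then ran from -1.52 to 1.19 for Rpl39l, from -0.65 to 0.52 for Rpl22l1 and from -0.44 to 0.10 for Rps27l, none past the threshold. The reversed values were 1.19 (without KO1) and 0.92 (without WT2) for Rpl39l, 0.52 (without WT2) for Rpl22l1, and 0.0053 (without WT1) and 0.10 (without WT2) for Rps27l. For Rpl7 the call also ended without KO1, KO2 or WT2, and for Rps27 without KO2 or WT2. Among the 6, depth limits Rpl10l (0 to 3 reads), and Rpl3l has no usable level.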

Other observations

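Other ribosomal protein copies outside the 6 genes were looked at after their values were seen. Rps4y2 (mm9, chromosome 6, 148303178 to 148304118, plus strand), which RefSeq now names Rps4l and lists as a transcribed pseudogene of the Rps4 family, was at 22.5 and 25.9 RPKM in KO1 and KO2, against 49.2 and 68.4 RPKM in WT1 and WT2. Both KO libraries lay below both WT libraries, the opposite of Rpl39l, as for 7.32% of all genes tested. The log2 difference was -1.25 and did not pass in limma by genotype alone (SE 0.27, adjusted p 1.00). In the number-adjusted fit it fell (SE 0.17, limma adjusted p 0.00726), and that fit called 0.296% of all genes lower. The gene was picked with these values known, so its p-values are a description and not a test. Under the 6 other settings of that fit the change ran from -1.26 to -1.21 and the adjusted p from 0.000600 to 0.408. The call ended with no filter on low values (0.408) and with the highest transcript row per gene (0.0895). The row belongs to a near copy of the X-linked Rps4x, so its reads may be shared.

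Rpl36al, an autosomal copy of the X-linked Rpl36a, was the most abundant of these genes, at 137.0 and 141.2 RPKM in KO1 and KO2 and at 175.7 and 133.8 RPKM in WT1 and WT2. It did not pass in either limma fit (log2 -0.14, adjusted p 1.00 and 0.907).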
